A study of Mus musculus with 18 samples.

Results

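The choroid plexus and ependymal genes described here are 8 transcripts, Ttr, Kl, Folr1, Clic6, Otx2, Foxj1, Ccdc153 and Tmem212, matched by symbol among 55416 gene IDs in the count table. The first 5 mark the choroid plexus epithelium, and Foxj1, Ccdc153 and Tmem212 mark ependymal cells. All 8 passed the filter on low counts, among 17174 genes tested, and each was read in all 18 libraries. The libraries are bulk poly(A)+ RNA-seq of peritumoral brain from mice labelled wild type, 6 brains for each of 3 brain metastasis models, collected 10 days after 40000 tumour cells were injected. In the melanoma model these were B16-F10-BrM4, in the lung cancer model 482N1 and in the breast cancer model EO771-BrM3 cells, so each model rests on a single tumour cell line. No tumour-free brain is among the samples, so every comparison is between models, with age, sex and injection route not given in the sources used here. Libraries 1 to 6 are melanoma, 7 to 11 with 13 are lung, and 14 to 19 are breast. Beyond 6 brains per model nothing is said of litters or batches, and p-values measure the spread between these brains.

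The choroid plexus is a folded sheet of epithelium in the brain's ventricles that secretes cerebrospinal fluid and passes hormones, vitamins and ions between blood and fluid. Ependymal cells line the ventricle walls and move the fluid with tufts of motile cilia, and choroid plexus epithelium is continuous with them. In bulk tissue, fewer cells of a type and less RNA per cell cannot be told apart, and in a resected piece both also move with how much ventricle lining the piece holds.

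Promoters are shown for 3 members, because the members' levels were positively correlated between brains in 2 of the 3 models, and each of these 3 genes has a single start in the table used. Any part of promoter motifs in these correlations was not tested. RefSeq's table on GRCm38.p6 holds a promoter for 4 of the 8 members, Kl, Otx2, Ccdc153 and Tmem212, with several starts for Otx2. The 240 bases printed run 5′ to 3′ on the gene's strand and stop 10 bases before the RefSeq start. The capitals in the Ccdc153 sequence mark a match to the X-box of RFX factors, regulators of cilia genes, searched as GTTNCCNNNNNAAC on both strands. This motif was chosen after the data were seen.
Ccdc153, chr9:44240427-44240666, plus strand: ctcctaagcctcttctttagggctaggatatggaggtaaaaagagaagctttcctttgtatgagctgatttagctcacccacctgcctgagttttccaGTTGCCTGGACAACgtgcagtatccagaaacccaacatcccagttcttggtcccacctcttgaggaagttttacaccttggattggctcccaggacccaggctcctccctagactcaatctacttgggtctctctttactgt
Tmem212, chr3:27896379-27896618, minus strand: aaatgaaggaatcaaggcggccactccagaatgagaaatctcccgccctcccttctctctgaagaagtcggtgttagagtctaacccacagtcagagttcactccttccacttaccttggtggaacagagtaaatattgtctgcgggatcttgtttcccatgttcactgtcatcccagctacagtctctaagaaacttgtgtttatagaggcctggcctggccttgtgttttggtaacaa
Kl, chr5:150952357-150952596, plus strand: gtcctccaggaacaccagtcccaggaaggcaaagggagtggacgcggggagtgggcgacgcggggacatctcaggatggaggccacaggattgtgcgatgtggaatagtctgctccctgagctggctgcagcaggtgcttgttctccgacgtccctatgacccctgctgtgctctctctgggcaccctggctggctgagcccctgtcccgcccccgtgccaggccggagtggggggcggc
The X-box match of Ccdc153, GTTGCCTGGACAAC, begins 152 bases before the start, and neither the Tmem212 nor the Kl window held that motif, TAATCC (OTX type), TGTTTAC (forkhead type) or GTTGCCA (an X-box start, whose first 6 letters fit those of the longer motif). Over the full window of 300 bases, the X-box stood in 422 of 27025 genes with a promoter in the table (1.56%), in 5 of 30 genes of a motile cilia list (16.7%) and in 0 of 24 genes of a choroid plexus list. GTTGCCA stood in 5.02% of all genes, in 8 of the 30 motile cilia genes, in 3 of 10 regulators of multiciliation, in 1 of the 24 choroid plexus genes and, among the members, in Otx2. TAATCC was found in 8.14% of all genes, in 3 of the 24 choroid plexus genes (12.5%), in 3 of the 30 motile cilia genes (10.0%) and, among the members, in Otx2. TGTTTAC was found in 4.05% of all genes, in 4 of the 30 motile cilia genes, in 1 of the 24 choroid plexus genes, in 1 of the 10 regulators and in no member. These are matches of letters and are given as a description.

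Ttr (ENSMUSG00000061808.5) encodes transthyretin, the carrier of thyroid hormone and of retinol-binding protein that the choroid plexus secretes into the fluid. It dominated the 8 genes. Values are CPM, reads scaled to library size with TMM factors, and to compare genes they were divided by transcript length in kilobases. Per kilobase, Ttr stood at 482.9 ± 164.5 (SD, n = 18), Foxj1 at 6.95 ± 1.84, Ccdc153 at 6.13 ± 1.69, Tmem212 at 5.29 ± 1.53, Folr1 at 4.95 ± 1.21, Clic6 at 3.78 ± 1.29, Kl at 3.29 ± 1.45 and Otx2 at 1.71 ± 0.45 CPM per kb. Ttr thus lay far above the others, each gene from Foxj1 down to Kl lay within an SD of the next, and Otx2 lay lowest. Ttr was 78.0% of the members' summed CPM in breast library 14 and 94.6% in melanoma library 3, the lowest and the highest share.

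Ttr was the member that differed between models. Its CPM ran from 361.3 through a median of 702.9 to 970.7 in the melanoma libraries, from 394.7 through 566.9 to 826.5 in the lung libraries, and from 314.2 through 387.9 to 631.6 in the breast libraries. Of the 6 melanoma libraries, 5 stood above all breast libraries, and melanoma library 1 with 361.3 CPM lay among the breast values. Mean levels were 697.5 ± 199.5 CPM in melanoma, 599.7 ± 165.3 in lung and 421.2 ± 123.6 in breast (SD, n = 6 each). Ttr was 1.66-fold higher in melanoma than in breast, a log2 fold change of 0.73 ± 0.23 (SE) with an adjusted p of 0.0219 (edgeR quasi-likelihood, Benjamini-Hochberg over all genes), and higher in 33 of 36 library pairs. In this comparison 1 of 8 members was called, beside 28.9% of all genes tested (9.76% higher and 19.2% lower in melanoma). The call was lost without breast library 16 (adjusted p 0.0548) and held in each of the other 17 fits that left out a library.

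**Figure D1:**
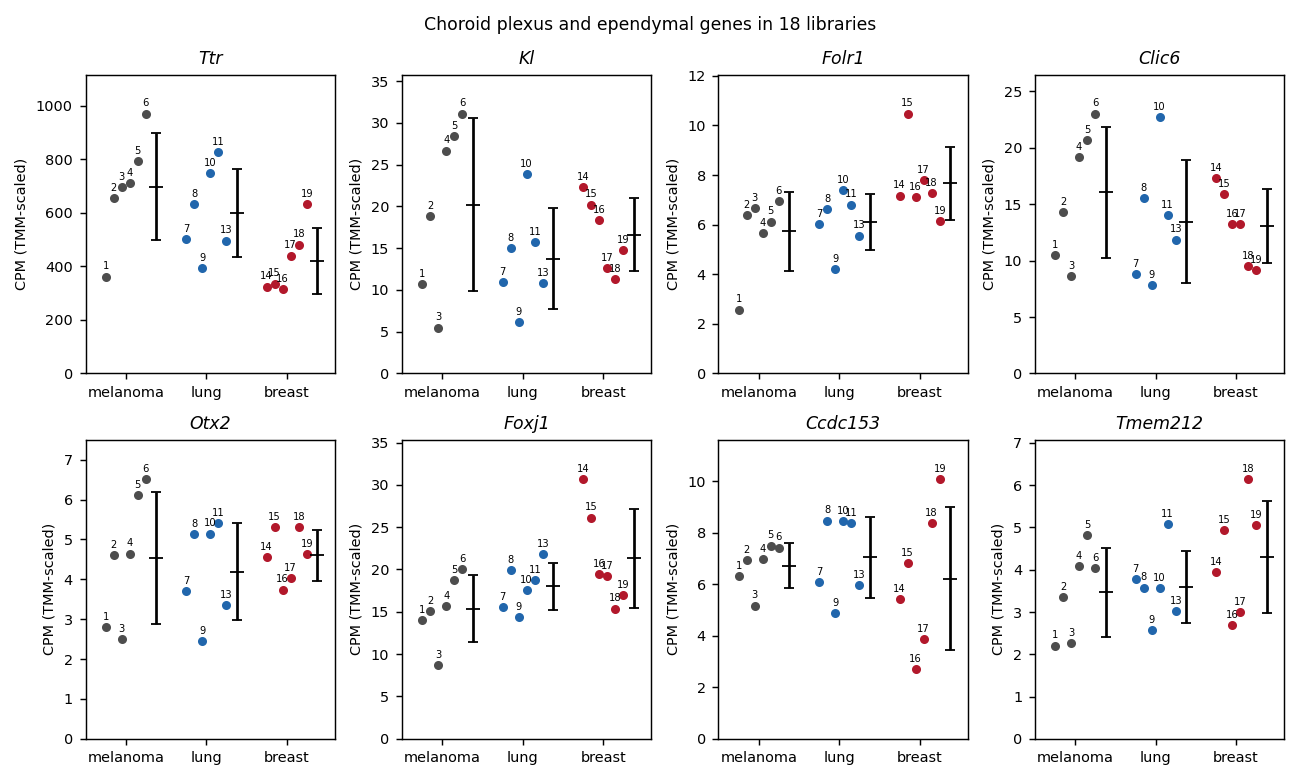
TMM-scaled CPM of the 8 members in each library (y axis, linear from 0), grouped by model. Points are libraries with their numbers, horizontal ticks the mean and bars 1 SD on each side (n = 6). For Ttr, 5 of 6 melanoma libraries lie above all 6 breast libraries, and for each gene the 3 models overlap.

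Between breast and lung, Ttr had a log2 fold change of -0.51 ± 0.23 with an adjusted p of 0.144 and was higher in breast in 5 of 36 library pairs. An interval of 2 SE on each side spans 0.511 to 0.966 of the lung level, and the difference passed without breast library 19 (-0.70, adjusted p 0.044). Between melanoma and lung the log2 fold change was 0.22 ± 0.23 (adjusted p 0.583), with an interval of 0.847 to 1.60-fold. With edgeR, 0 of 8 members were called in each of these comparisons, beside 18.3% of all genes in breast against lung and 23.2% in melanoma against lung. DESeq2 and limma voom also called 0 members in both. At an unadjusted p under 0.05 there was 1 member in breast against lung, Ttr (p 0.0391 by edgeR), and 0 in melanoma against lung. In the test of any difference among the 3 models, edgeR called Ttr alone (adjusted p 0.0479), 1 of 8 members beside 35.8% of genes, and this call was lost without any 1 of melanoma libraries 2, 4, 5 and 6, lung libraries 7, 8, 10 and 13 or breast libraries 14 to 17 (adjusted p 0.0523 to 0.114).

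The libraries differed in how well long transcripts were read. In 3 libraries, melanoma 3 and breast 18 and 19, the slope of log2 CPM per doubling of transcript length was -0.268, -0.273 and -0.216, while the other 15 had slopes of -0.12 to 0.184. Ttr's transcript is short at 1186 bases, and breast libraries 18 and 19 had the highest Ttr of their model, 480.9 and 631.6 CPM. Melanoma library 3, however, had 696.3 CPM of Ttr, near its model's median of 702.9. Folr1, with a transcript of 1313 bases, stood at 7.27 CPM in breast library 18 and at 6.14 in library 19, the lowest of that model. The part of transcript length in these levels was not tested. Without these 3 libraries, Ttr was lower in breast than in lung by a log2 fold change of -0.82 (edgeR adjusted p 0.0234) and the melanoma to breast difference was 1.04 (adjusted p 0.00512). With the length trend of each library removed, the melanoma to breast difference was 0.92 (adjusted p 0.00543). Liver-type epithelial markers, listed because liver also makes transthyretin, had summed levels between 1.30 and 3.53 CPM for melanoma, 99.9 and 167.1 for lung and 41.0 and 124.7 for breast. Of 13 such markers 5 passed the filter on low counts, Fgb was not read, and Fga and Fgg had at most 3 reads in all. The part of such cells in the Ttr levels was not tested.

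Kl (ENSMUSG00000058488.8) encodes klotho, a membrane protein and co-receptor for a hormone of the FGF family. Its CPM ran from 5.49 through 22.8 to 31.1 in melanoma, from 6.17 through 12.99 to 23.8 in lung and from 11.3 through 16.5 to 22.3 in breast. It varied most among the members in melanoma, 5.67-fold between libraries 3 and 6. Its largest difference was 0.56 ± 0.36 in log2 between melanoma and lung (edgeR adjusted p 0.320), with an interval of 0.895 to 2.43-fold. Kl has the longest transcript of the 8, 5118 bases, and its lowest value lay in melanoma library 3, which was poor in long transcripts.

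Folr1 (ENSMUSG00000001827.13), the folate receptor that carries folate into the fluid, had 2.57, 6.26 and 6.93 CPM as lowest, median and highest value in melanoma, 4.20, 6.32 and 7.39 in lung and 6.14, 7.22 and 10.5 in breast. Melanoma was higher in 3 of 36 pairs with breast, the opposite order to Ttr. That difference, -0.43 ± 0.20 in log2, had an edgeR adjusted p of 0.132 and an interval of 0.563 to 0.979-fold. The gene overlaps Anapc15 on the opposite strand, with no exon in common.

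Clic6 (ENSMUSG00000022949.10), a chloride intracellular channel protein, ran from 8.62 through 16.7 to 23.0 CPM in melanoma, from 7.80 through 12.9 to 22.7 in lung and from 9.15 through 13.3 to 17.3 in breast. Otx2 (ENSMUSG00000021848.17), the homeobox transcription factor that choroid plexus epithelium needs to form and persist, ran from 2.51 through 4.62 to 6.52 CPM in melanoma, from 2.44 through 4.42 to 5.40 in lung and from 3.74 through 4.60 to 5.32 in breast. Neither gene passed the test in any comparison (edgeR adjusted p 0.449 to 0.953 for Clic6 and 0.766 to 0.956 for Otx2). For Otx2 between melanoma and breast the interval of 2 SE was 0.707 to 1.38-fold. Exons of Otx2 overlap the antisense transcript Otx2os1, which had 96 reads, with the strand mode of counting not given in the sources used here.

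Foxj1 (ENSMUSG00000034227.8) encodes the forkhead factor that switches on the genes of motile cilia. Its CPM ran from 8.70 through 15.4 to 20.1 in melanoma, from 14.4 through 18.2 to 21.8 in lung and from 15.4 through 19.4 to 30.7 in breast. Breast libraries 14 and 15 had the highest values of all, 30.7 and 26.1 CPM, and the others overlapped between models. Between melanoma and breast the log2 fold change was -0.48 ± 0.19, with an unadjusted p of 0.0248 and an edgeR adjusted p of 0.0766, so it did not pass. Without the 3 libraries poor in long transcripts it was -0.45 with an adjusted p of 0.0460.

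Ccdc153 (ENSMUSG00000070306.4), a coiled-coil protein of motile cilia, ran from 5.17 through 6.95 to 7.51 CPM in melanoma, from 4.88 through 7.24 to 8.48 in lung and from 2.69 through 6.12 to 10.1 in breast. The breast libraries were the most spread, with 2.69 CPM in library 16 and 8.39 and 10.1 in libraries 18 and 19. Tmem212 (ENSMUSG00000043164.4), a membrane protein used as an ependymal marker, ran from 2.21 through 3.70 to 4.82 CPM in melanoma, from 2.58 through 3.57 to 5.09 in lung and from 2.69 through 4.44 to 6.15 in breast. Neither was called by edgeR in any comparison of all libraries. Without the 3 libraries poor in long transcripts, Ccdc153 was higher in melanoma than in breast by 0.65 in log2 (edgeR adjusted p 0.0448). That made 3 members called, with Ttr and Foxj1. This fit was among 13 alternatives, other than those leaving out 1 library, that called 4043 to 5955 of all genes. With all 18 libraries 4966 were called. The share for this fit alone is not given here. Both transcripts are short, 1087 and 716 bases.

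**Figure D2:**
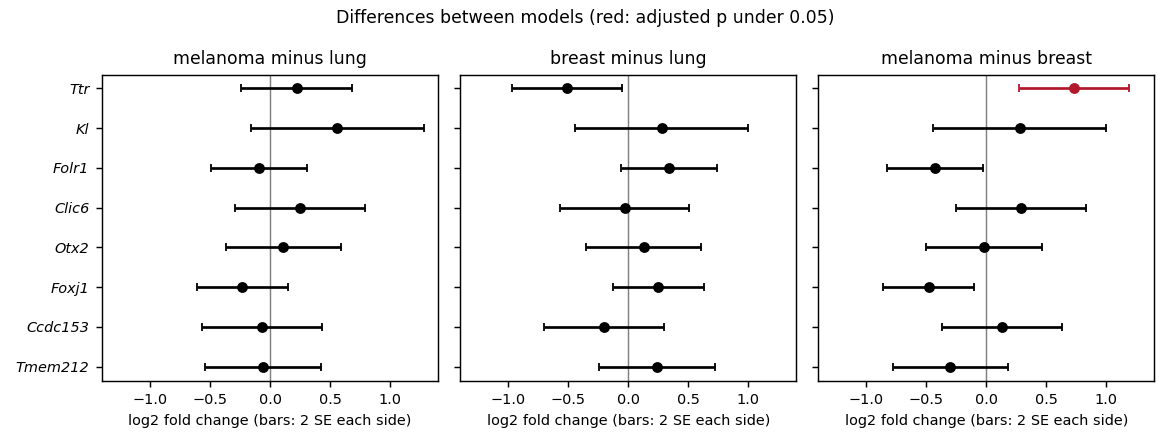
Log2 fold change of each member in the 3 comparisons (x axis), points with bars of 2 SE on each side, from the edgeR fit of 18 libraries. Only Ttr between melanoma and breast, at 0.73, has an adjusted p under 0.05 and is drawn in red.

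The 3 models overlapped for all 8 members in each comparison. Of all genes, 14.3%, 14.9% and 17.1% had groups that did not overlap for melanoma with lung, breast with lung and melanoma with breast in turn. With only 8 members, this does not set them apart from all genes. The median log2 fold change over the members was 0.02, 0.18 and 0.06 in these comparisons, beside 0.02, -0.02 and 0.04 over all genes.

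The ratio of Ttr reads to another member's reads in the same library does not depend on how libraries were scaled. These ratios were chosen after the data were seen, and 15 were tested by exact permutation of libraries (two-sided, 924 splits, Benjamini-Hochberg over the 15). Folr1 has a transcript of 1313 bases, close to that of Ttr. There were 102.2 to 140.4 Ttr reads per Folr1 read in the melanoma model, 83.3 to 121.3 in the lung model and 32.0 to 102.8 in the breast model. Melanoma and lung libraries overlapped, and 5 of the breast libraries lay below all of both. The geometric means were 122.7, 96.7 and 53.9 reads per read. Melanoma exceeded breast by 1.19 in log2 (exact permutation, adjusted p 0.0325) in 35 of 36 pairs, breast fell below lung with a log2 difference of -0.84 (exact permutation, adjusted p 0.0379), and melanoma exceeded lung by 0.34 (exact permutation, adjusted p 0.0379). The first of these held whichever library was left out, while the second was lost without breast library 15 or any 1 of the 6 lung libraries (adjusted p 0.0519 to 0.0649), and the third without any 1 of melanoma libraries 1, 4, 5 and 6, lung libraries 7, 8, 9, 10 and 13 or breast library 15 (adjusted p 0.0541 to 0.0835). Fewer libraries also leave fewer splits.

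Relative to Otx2, the geometric mean of Ttr reads per read was 157.1 in melanoma, 143.8 in lung and 89.3 in breast. Breast differed from lung by -0.69 in log2 and from melanoma by 0.81 in the other direction (exact permutation, adjusted p 0.0325 each). Relative to Foxj1, melanoma exceeded breast by 1.19 (exact permutation, adjusted p 0.0379), with geometric means of 45.0 and 19.7 reads per read, and this was lost without any 1 of melanoma libraries 3 to 6 or breast libraries 14 to 16 (adjusted p 0.0541 to 0.0649). Relative to Clic6 and Kl, whose transcripts are longer, no difference passed in all 18 libraries (exact permutation, adjusted p 0.211 to 0.827 for Clic6 and 0.0835 to 0.667 for Kl). With the length trend of each library removed, breast differed from lung by -0.60 in log2 for Clic6, -0.96 for Kl and -0.78 for Foxj1, and all 3 passed (exact permutation, adjusted p 0.0443, 0.00812 and 0.0443). Melanoma then exceeded breast by 0.67 for Clic6 and 0.87 for Kl (exact permutation, adjusted p 0.0443 and 0.0108). Without the 3 libraries poor in long transcripts, breast differed from lung by -0.96, -1.24 and -1.12 for Clic6, Kl and Foxj1 (exact permutation, adjusted p 0.0179 each), and melanoma exceeded breast by 0.74 for Clic6 (exact permutation, adjusted p 0.0179). For Kl the melanoma to breast difference did not pass without them (0.65, exact permutation, adjusted p 0.0893), and melanoma lay below lung by a log2 difference of -0.58 (exact permutation, adjusted p 0.018).

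**Figure D3:**
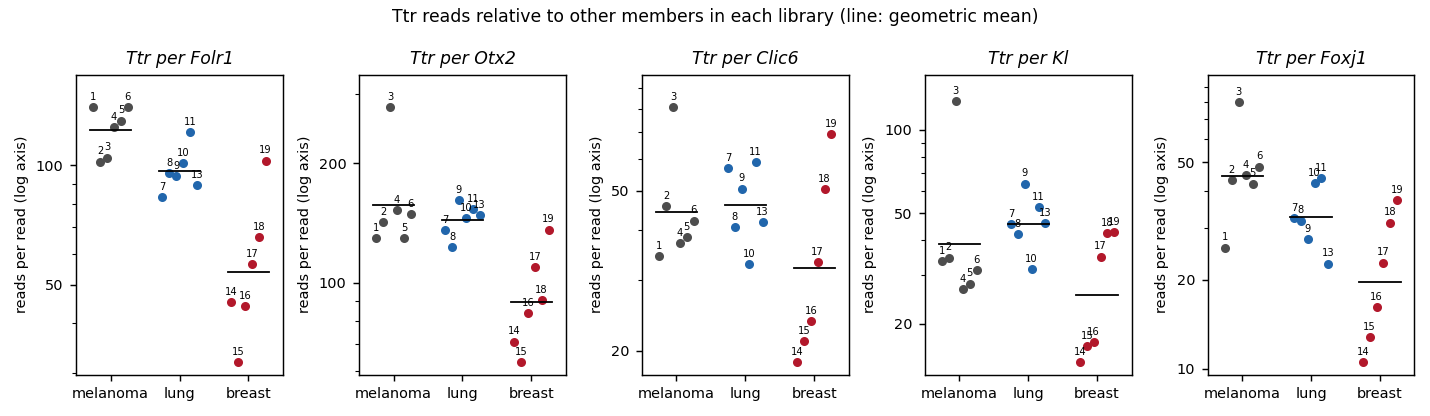
Ttr reads per read of 5 other members in each library (y axis, log scale), by model, points with library numbers and lines at the geometric mean. Breast libraries 14 to 16 have the lowest values in each of the 5 panels, down to 32.0 Ttr reads per Folr1 read in library 15.

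Within the melanoma and lung models the members' levels were positively correlated between brains. All 28 pairs of members had a positive Pearson r of log2 CPM over the 6 libraries in melanoma (median 0.88, from 0.07 to 0.98) and in lung (median 0.83, from 0.25 to 0.99). In breast 15 of 28 pairs were positive, with a median of 0.06 and a range of -0.87 to 0.94. Genes of a library share its depth, dissection, RNA quality and content of tumour RNA, and these counts are a description. In melanoma, Kl, Clic6, Otx2 and Foxj1 each rose from library 3 through 1, 2, 4 and 5 to 6. Summed melanocyte markers fell in that same order, from 23308 CPM in library 3 to 3723 in library 6. Ttr, Folr1, Ccdc153 and Tmem212 did not keep to this order throughout. The part of tumour RNA in the correlations was not tested. With the length trend removed the positive pairs were 28, 28 and 20 of 28, with medians of 0.90, 0.93 and 0.28. Whether the correlations differ between models was not tested.

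Of 21 correlations tested by exact permutation, 2 passed after adjustment. Ttr and Otx2 in lung had r = 0.96 (exact permutation p 0.00139, the smallest possible, adjusted 0.0292) and rho = 1.0 (exact p 0.00278, adjusted 0.0583), and r was 0.93 without libraries 9 and 11. Foxj1 and Ccdc153 in melanoma had r = 0.98 (exact permutation p 0.00417, adjusted 0.0437) and rho = 0.94 (exact p 0.0167, adjusted 0.0875), and r was 0.94 without libraries 3 and 6. Neither rho passed after adjustment. Ttr and Folr1 in melanoma had r = 0.93 (exact permutation p 0.0333, adjusted 0.113) and rho = 0.54 (exact p 0.297, adjusted 0.416). That r was -0.32 without libraries 1 and 6, so it rested on those libraries. With the length trend removed and all 6 libraries kept, it was 0.94 and passed (exact permutation, adjusted p 0.0243).

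In breast, Ttr had negative correlations with Kl, Folr1, Clic6 and Foxj1, none of which passed. With Clic6 it had r = -0.87 (exact permutation p 0.025, adjusted 0.105) and rho = -0.66 (exact p 0.175, adjusted 0.283), and with Kl r = -0.72 (exact permutation p 0.11, adjusted 0.225) and rho = -0.66 (exact p 0.175, adjusted 0.283). Foxj1 and Tmem212, both ependymal, had r = -0.21 (exact permutation p 0.678, adjusted 0.678) and rho = -0.54 (exact p 0.297, adjusted 0.416). Breast libraries 14 and 15 were the highest of their model in Kl, Clic6 and Foxj1 and, with 16, the lowest in Ttr, while libraries 18 and 19, poor in long transcripts, were the lowest in Clic6 and Foxj1 and the highest in Ttr. With the length trend removed, r of Ttr with Clic6 was -0.68 and with Kl -0.44.

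**Figure D4:**
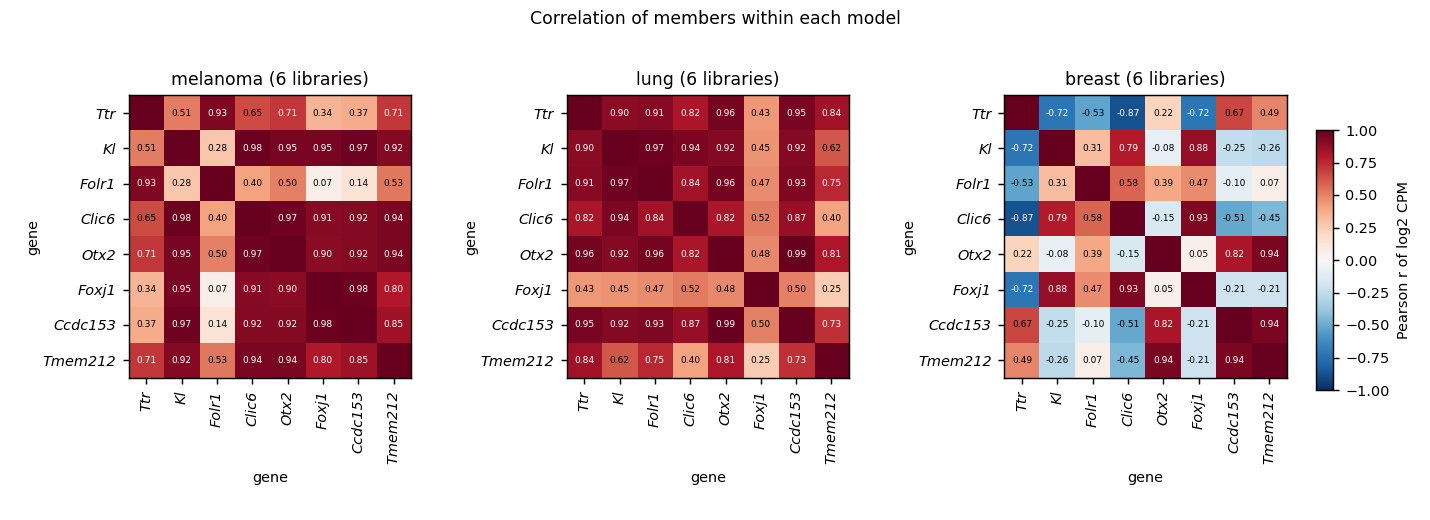
Pearson r of log2 CPM for each pair of members within melanoma, lung and breast (6 libraries each), as a colour from -1 (blue) to 1 (red). All 28 pairs are positive in melanoma and lung, and 15 of 28 in breast.

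The genes most like Ttr over all 18 libraries, by Pearson r of log2 CPM centred within each model among 16337 genes, were Gabra4 (0.92), a GABA receptor subunit, Zfp2 (0.92), Spock3 (0.91), Reep5 (0.91), Eps15 (0.90), Pfn2 (0.90), Pdp1 (0.89) and Gpr6 (0.89). No other member was among these 8. Otx2 was the closest member to Ttr with r = 0.69 at rank 308, followed by Tmem212 with 0.66 at rank 425. The genes most like Foxj1 were Adgrg1 (0.96), Plxdc2 (0.95), Kcnj10 (0.95), a glial potassium channel, and Ddah1, Gna12, Gpld1, Ptpn13 and Pcsk6 (0.94 each). Kl was the closest member to Foxj1, with 0.78 at rank 2536, and Ccdc153 had 0.13. The 33 motile cilia genes of sufficient level had a median r of 0.47 with Foxj1, and the 23 choroid plexus genes one of 0.42, beside 0.01 over all genes. With Ttr the medians were 0.25 for the motile cilia genes and 0.20 for the choroid plexus genes, beside -0.03 over all genes. The medians of both lists were thus close to each other for each of these members. These are descriptions over libraries that share depth and length trend.

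Of 26 further choroid plexus genes, 25 were tested, and Igf2 had no read counted. In melanoma against lung 4 were called higher and 5 lower, beside 8.51% and 14.7% of all genes. In breast against lung 3 rose and 3 fell, beside 11.2% and 7.16%, and between melanoma and breast 2 were higher and 3 lower in melanoma, beside 9.76% and 19.2%. When each library was left out in turn, the count of 4 ran from 3 to 7, with 7 without melanoma library 3 or lung library 10, and the count of 2 from 1 to 3. Of those 2, Wfikkn2, a secreted protease inhibitor (0.81, edgeR adjusted p 0.0474), was lost in 13 of the 18 fits (adjusted p 0.0509 to 0.088). Without the 3 libraries poor in long transcripts the calls were 8 higher in melanoma than in lung and 6 lower in breast than in lung. Over the 13 alternatives other than those leaving out 1 library, this fit among them, all-gene counts varied as well. They were 3413 to 5845 in melanoma against lung and 2719 to 4357 in breast against lung. Over the 3 comparisons 11 of 25 were called at least once (44.0%), beside 39.6% of all genes tested, so the share is near the background. The median log2 fold change was 0.20, 0.20 and -0.06, and the list's summed level overlapped between models at 654.2 to 1052 CPM in melanoma, 703.0 to 905.7 in lung and 711.3 to 865.3 in breast. Enpp2, a secreted lysophospholipase also made by oligodendrocytes, had the highest level per length of the list, 139.3 CPM per kb, ahead of Igfbp2 with 94.96 and Cab39l with 19.67. Enpp2 was also the largest part of the summed level, with means of 545.5, 377.4 and 371.0 CPM in melanoma, lung and breast. The medians of the sum were 840.3, 752.9 and 753.8 CPM.

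Aqp1, the water channel of the choroid plexus, was 19.3 CPM in lung, 4.23 in melanoma and 4.52 in breast. It fell by 2.19 ± 0.23 in log2 from lung to melanoma (edgeR adjusted p 6.141e-07) and by 2.09 ± 0.23 from lung to breast (adjusted p 1.841e-06), with no overlap. Igfbp2, a binding protein of insulin-like growth factors, was lower in melanoma than in lung by a log2 change of -1.92 (edgeR adjusted p 1.348e-07) and lower than in breast by -1.46 (adjusted p 2.978e-06). Col8a1, a collagen chain, was lower than in lung in melanoma (-1.46, edgeR adjusted p 1.106e-06) and in breast (-1.09, adjusted p 5.311e-05). Simple epithelial markers, 5 of 7 tested, summed to 309.4 to 1318 CPM in the lung model, against 66.3 to 166.8 in the breast model and 4.94 to 5.78 in the melanoma model, and their part in these differences was not tested.

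Kcnj13, a potassium channel of the choroid plexus, was higher in melanoma than in breast by 3.22 ± 0.43 in log2 (edgeR adjusted p 7.706e-06). Its CPM in melanoma libraries 1 to 6 was 105.1, 33.5, 20.7, 21.5, 20.5 and 23.7, all above the 1.42 to 5.75 CPM of the other models. Without library 1 the difference from breast was 2.57 in log2 (edgeR adjusted p 6.34e-07) and that from lung 2.91 in place of 3.55 (adjusted p 2.17e-07), so the size of both rested in part on that library. Library 1, with the highest Kcnj13, had the lowest Ttr and Folr1 of its model. Slc4a5, a bicarbonate transporter, was 22.9 to 31.1 CPM in breast libraries and at most 4.23 in lung and 5.45 in melanoma. It was higher in breast than in lung by 3.53 ± 0.27 in log2 (edgeR adjusted p 1.269e-08) and the change from breast to melanoma was -2.60 ± 0.25 (adjusted p 1.942e-07). Ttr had its lowest mean in the breast model, where Slc4a5 had its highest.

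**Figure D5:**
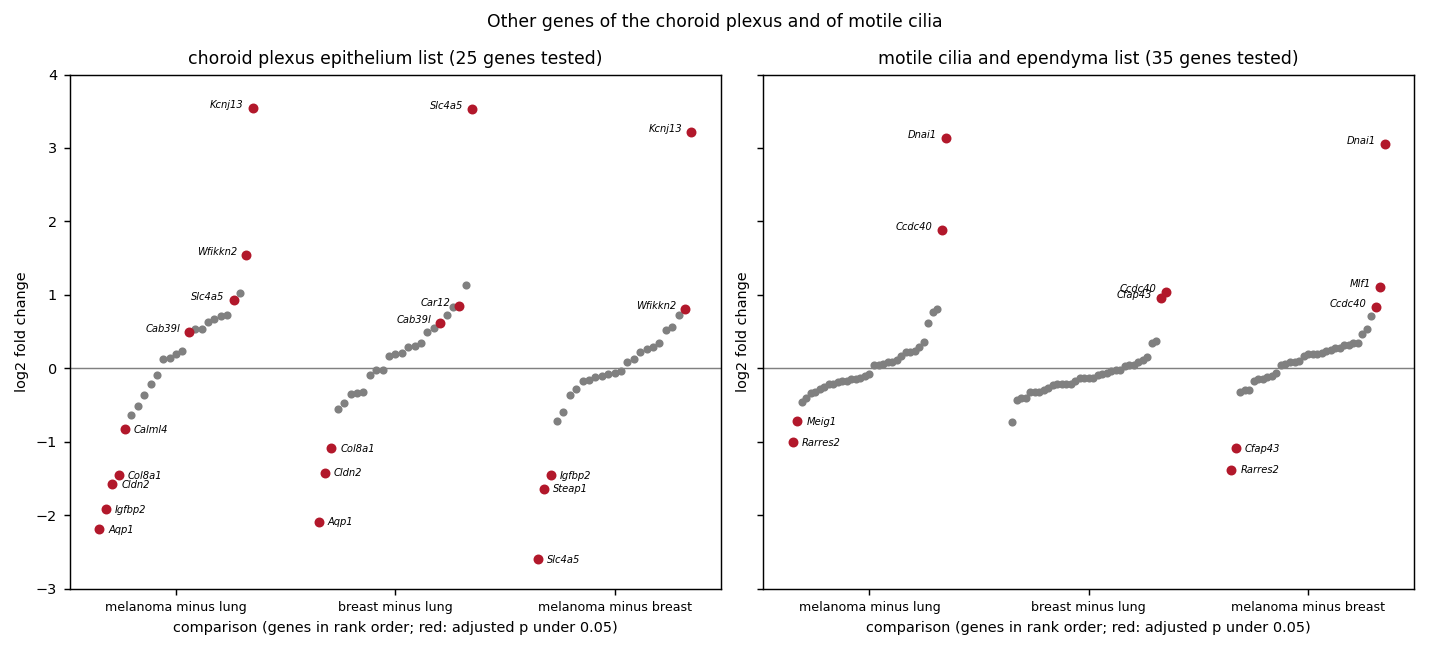
Log2 fold changes of the genes tested in the choroid plexus list (25) and the motile cilia list (35) in the 3 comparisons, genes in rank order. Genes with an adjusted p under 0.05 are red and named, among them Kcnj13 at 3.55 and Aqp1 at -2.19 in melanoma minus lung.

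Of 37 motile cilia genes 35 were tested. Gas8 had no read counted and Mia had 1. Melanoma against lung gave 2 higher and 2 lower, beside 8.51% and 14.7% of all genes. Melanoma against breast gave 3 and 2, beside 9.76% and 19.2%. Breast against lung gave 2, both higher in breast, beside 11.2% higher and 7.16% lower. When each library was left out in turn, the number lower in melanoma than in lung ran from 1 to 4, and the number lower in breast than in lung from 0 to 1. Without the 3 libraries poor in long transcripts 3 were lower in breast than in lung and 4 lower in melanoma than in lung. Without melanoma library 3 alone 7 were higher in melanoma than in breast. In that last fit the count over all genes rose too, from 4966 to 8078 in either direction. At least 1 call was made for 6 of 35 (17.1%), beside 39.6% of all genes tested. The summed level was 218.9 to 271.6 CPM in melanoma, 225.7 to 268.8 in lung and 184.0 to 263.3 in breast, and the median log2 fold change was -0.08 in melanoma against lung, 0.19 in melanoma against breast and -0.13 in breast against lung. Per length, Tppp3 led with 45.21 CPM per kb, followed by Rarres2 with 26.42 and Rsph9, a radial spoke protein, with 13.45.

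Dnai1, an intermediate chain of the dynein arms of motile cilia, was called higher in melanoma than in lung, by 3.14 ± 0.31 in log2 (edgeR adjusted p 2.667e-07), and than in breast, by 3.05 ± 0.31 (adjusted p 3.297e-07). Its CPM in melanoma libraries 1 to 6 was 47.5, 38.4, 59.5, 25.3, 17.8 and 14.9, beside 2.55 to 5.46 in the other models. Melanocyte markers (7 genes, all read) summed to 15202, 13630, 23308, 7261, 4601 and 3723 CPM in the same libraries, in the same order of size, and to at most 20.5 elsewhere. The part of tumour RNA in Dnai1 was not tested. Ccdc40, needed to assemble ciliary axonemes, was higher in melanoma than in lung by 1.88 (edgeR adjusted p 2.322e-06) and in breast than in lung by 1.04 (adjusted p 0.00228). Rarres2, the secreted protein chemerin, was lower in melanoma than in lung by a log2 change of -1.01 (edgeR adjusted p 0.000188) and than in breast by -1.38 (adjusted p 4.447e-06). Cfap43, an axonemal protein, was higher in breast than in lung by 0.95 (edgeR adjusted p 0.00144).

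Of 10 regulators of multiciliation, which act before or beside Foxj1, 8 were tested and Plk4 alone was called (12.5%, beside 39.6% of all genes tested with at least 1 call), higher in breast than in lung by 1.05 (edgeR adjusted p 0.0213) and lower in melanoma than in breast by -0.95 (adjusted p 0.0244). The first was lost without breast library 18 or lung libraries 10 or 11 (adjusted p 0.0509 to 0.0702), and the second without breast library 18 or melanoma libraries 4, 5 or 6 (adjusted p 0.0624 to 0.0937). Plk4 also duplicates centrioles in dividing cells. Rfx3, a factor of the X-box family, was 20.8, 18.8 and 16.3 CPM in melanoma, lung and breast and was not called. The summed level of the 10 regulators was 64.0 to 82.8 CPM in breast. All breast libraries thus lay above those of melanoma (46.7 to 60.7) and lung (41.2 to 56.8), and this sum was not tested.

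Of 13 partners of transthyretin, folate receptor and klotho, 11 were tested, with 4 called in melanoma against lung, all lower in melanoma, and 4 in melanoma against breast, again all lower. In breast against lung 3 were higher and 2 lower. Over the 3 comparisons 6 of 11 were called at least once (54.5%), beside 39.6% of all genes tested. The 3 higher in breast fell to 1 in 9 of the 18 fits that left out a library: Fgfr1 (0.70, edgeR adjusted p 0.0431) was lost in 12 of them and Slc19a1, the reduced folate carrier (0.38, adjusted p 0.035), in 11. The medians were -0.28, -0.13 and -0.22 in that order. Rbp4, the retinol-binding protein that transthyretin carries, was 8.03, 16.4 and 31.3 CPM in melanoma, lung and breast, the reverse order to Ttr, and was lower in melanoma than in breast by -1.95 ± 0.24 in log2 (edgeR adjusted p 3.745e-06). Folr2, a folate receptor of macrophages, was 0.593, 5.02 and 2.61 CPM and was lower in melanoma than in lung by -3.05 (edgeR adjusted p 1.437e-07). Slc46a1, the proton-coupled folate transporter, was lower than in lung in melanoma (-0.53, edgeR adjusted p 0.00254) and in breast (-0.40, adjusted p 0.0266), the latter lost without breast libraries 16 or 17 or lung library 13 (adjusted p 0.066 to 0.0665). Fgfr1, the receptor that klotho joins, was lower in melanoma than in breast by -1.33 (edgeR adjusted p 0.000206). The transporter Slco1c1 and the thyroid hormone receptor Thra were not called.

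Library totals were 10669355 to 13396710 counts for melanoma, 12070005 to 14533877 for lung and 7366250 to 13544054 for breast. Markers of other tissue that the pieces could hold were read in every library. Summed cortical neuron markers were 396.4 to 1209 CPM, striatal markers 624.5 to 1111 and oligodendrocyte markers 3659 to 6520 over the 3 models. Of 8 markers of neuroblasts and the subventricular zone, which borders the ependyma, the sum was 275.6 to 354.6 CPM in lung and 94.3 to 189.6 in the other models. Most of that gap was Cd24a, with means of 164.9 CPM in lung, 12.95 in melanoma and 28.68 in breast. Against lung, 3 of the 8 were called lower and 1 higher in melanoma, and 3 lower and 0 higher in breast. Dlx2 differed from lung by -2.39 in log2 in melanoma and -1.21 in breast (edgeR adjusted p 2.983e-08 and 0.0001061). Sox11 was higher in melanoma than in lung by 1.44 in log2 (edgeR adjusted p 1.68e-05), and Dcx, Dlx1 and Dlx5 were not called. The 6 astrocyte markers summed to 1454 to 2570 CPM in melanoma against 3179 to 5126 in lung and 3422 to 4187 in breast. Most of that difference was Gfap (means of 349.4, 2013 and 1765 CPM). Called lower in melanoma were 3 of the 6 against lung and 4 against breast, with 0 higher. Among them were Gja1 (log2 fold changes of -0.89 and -1.13) and Aqp4 (-0.85 and -0.83), while Slc1a2 and Aldh1l1 were not called. The 8 meningeal fibroblast markers reached 1199 CPM in lung and at most 143.6 elsewhere. In lung Col1a1 and Col1a2 made up most of the sum, at 156.2 ± 178.7 and 228.8 ± 195.8 CPM (SD, n = 6). Against lung, 4 of the 8 were called lower and 1 higher in melanoma, and 3 lower and 0 higher in breast. Those lower included Lum (-1.5 in log2 in breast, edgeR adjusted p 0.02144). Foxc1 was the 1 higher in melanoma, by 0.86 in log2 (edgeR adjusted p 0.001876), and Slc6a13, Slc47a1 and Aldh1a2 were not called. In melanoma against breast the log2 fold change was positive for 6 of 7 cortical, 7 of 8 striatal and 1 of 5 oligodendrocyte markers. It was also positive for 6 of 6 hippocampal and 6 of 7 thalamic and habenular markers. The medians were 0.47, 0.11, -0.13, 0.42 and 0.27 in turn, beside 0.04 over all genes. The only call among these was Rorb, a cortical marker, lower in melanoma (-1.17, edgeR adjusted p 0.0002371). The part of these tissues in the members' levels was not tested.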

How the data were processed

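Peritumoral brain of 18 mice, 6 per model, was measured by RNA-seq with a directional poly(A)+ kit, per the labels' protocols. Per the submitters' processing notes the build was GRCm39 and demultiplexing used bcl2fastq, with aligner, annotation and strand mode not given in the sources used here. Raw counts per Ensembl gene and CPM for 16925 genes by symbol were deposited by the authors. Of the positive deposited CPM values 100.0% came out as whole reads (tolerance 0.01), and all 144 member values equalled the counts; a fit of these reads called 3469, 2719 and 4448 genes in the 3 comparisons (melanoma against lung, breast against lung, melanoma against breast).

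Symbols and transcript lengths came from GENCODE M21 by gene ID (94.0% of IDs, 99.8% of reads). Counts were fitted with edgeR 4.0.16 in R 4.3.3 (robust quasi-likelihood, TMM, filterByExpr, 1 coefficient per model), and genes were called at an adjusted p under 0.05. DESeq2 1.42.0, limma 3.58.1, other scalings and filters, and libraries left out were alternatives. Correlations used log2 CPM with 0.5 added. In simulated data for melanoma against lung, the fit recovered 61.0% of 200 genes changed 2-fold, with 4 false calls. Of 200 genes changed 4-fold it recovered 98.5%, with 5 false calls. All differences of members between models were under 2-fold, so a member not called may still differ.

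The members and the 15 gene lists were chosen with earlier results of these data known. Named genes are the members, the 3 called genes with the smallest p per list and comparison for the 4 related lists (of the lists of other tissues, sums and the genes that carry or oppose them, chosen after their values were seen), the 3 highest per length, and the 8 most like Ttr and Foxj1. Rfx3, Slco1c1, Thra, Wfikkn2 and Slc19a1 were added after their values were seen. The 3 libraries poor in long transcripts were known from earlier results; removal of the length trend, recovered reads, the read ratios and the X-box were chosen after seeing the data. Totals of 7366250 to 14533877 counts set the precision.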

Additional observations from a re-analysis of the deposited data

Results flagged for a closer look

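Folr1 in melanoma replicate 1 was 2.57 CPM, far below the next library of the model at 5.67 CPM. The gap was 0.71 of the model's range, above Dixon's critical value for 6 libraries. Of 24 sets of 6 libraries tested (8 members in 3 models) this was the 1 flagged, and chance flags about 1 in 20. The same library had the lowest Ttr of its model, 361.3 CPM.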

How the results depend on the processing

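No paired analysis was possible because the library numbers run on across the models and no number occurs in 2 of them. In 18 fits that each left out a library, the number of members called was 0 in all for melanoma against lung, 0 to 1 for breast against lung (1 without breast library 19), 0 to 1 for melanoma against breast (0 without breast library 16) and 0 to 1 for any difference. Without melanoma library 3 and breast libraries 18 and 19, 1 member was called in breast against lung and 3 in melanoma against breast. Those 3 were Ttr, Foxj1 and Ccdc153. Over the 13 alternatives other than those leaving out 1 library, this fit among them, all-gene counts also varied. They ran from 2719 to 4357 in breast against lung (3149 with all libraries) and from 4043 to 5955 in melanoma against breast. With the length trend removed, 9 of the 21 correlations passed in place of 2. The causes were not tested. Other scalings, filters and tests, and reads recovered from the CPM, changed no count of members called, and no call changed its direction. The all-gene count for melanoma against breast was 4966 and rose to 8078 without melanoma library 3. Other scalings moved the median of all genes by under 0.1 in log2. Depth limits the faint members: Tmem212 had 29 to 66 reads in a library.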
